A study of Mus musculus with 6 samples.

Results

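The forkhead gene Foxe3 and 9 further genes that build or mark the lens epithelium (Pax6, Pitx3, Tfap2a, Six3, Meis1, Meis2, Pdgfra, Cdh1 and Mab21l1) were followed in whole lenses of transgenic and wild-type mice. Every probe set annotated to these 10 genes was taken, which gave 26 of 45037 probe sets and 10 of 18193 measured genes. The transgenic group held 3 samples and the wild-type group 3, all Balb/c whole lenses at 2 days of age, each hybridised to 1 Affymetrix array. The labels name neither the transgene nor its promoter, and 12 lenses were taken per genotype. Samples are called T1 to T3 for transgenic and W1 to W3 for wild-type lenses. Whether the samples of a group stem from different animals is not stated, and the p-values therefore cover just the spread among these samples, part of which may be technical.

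The lens epithelium is the single layer of dividing cells under the anterior capsule, and its cells leave the cycle near the equator to become fibers. In the mouse Foxe3 is switched on in the lens placode, stays on in the epithelium and is turned off as fibers form, and lenses that lack it are small and proliferate poorly. Pax6, Six3, Meis1, Meis2 and Mab21l1 act in the induction of the lens, Pitx3 and Tfap2a in the growth and separation of the lens vesicle, and Pdgfra and Cdh1 encode surface proteins of the epithelial cell. Several are also active outside the lens: Pax6, Six3, Meis1, Meis2, Tfap2a and Mab21l1 in the retina, Cdh1 and Tfap2a in skin, and Pdgfra in mesenchyme.

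Foxe3 was the only one of the 10 genes with a probe set that rose. A probe set passed at a limma adjusted p under 0.05, with adjustment over all 45037 probe sets. Of the 26 probe sets 1 was higher, that of Foxe3, and 1 was lower, a dim probe set of Six3, while 24 did not pass. Over all probe sets 3.68% passed, 1.47% as higher and 2.21% as lower (661 and 995 probe sets, against 470 and 1297 when array medians were set equal). The groups did not overlap for 5 of the 26, against 27% of all probe sets, and for the brightest probe set of 2 of the 10 genes (Foxe3 and Mab21l1), against 28.8% of all genes. Leaving Foxe3 aside, the differences of the other 25, given throughout as transgenic minus wild type in log2, ran from -0.48 to 0.30. Their median was -0.076, and that over all probe sets was 0.0039. In bulk tissue, fewer cells of a type and less RNA per cell cannot be told apart.

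The sequence before the listed start or starts of a gene was read from RefSeq (GRCm38.p6), and was at hand for 8 of the 10 genes. No upstream sequence was at hand for Cdh1 and Mab21l1. The 250 bases upstream of a listed start are shown for Foxe3 and Six3, since each had a probe set that passed. They are also shown for the downstream start of Pax6, which shares a Meis word with Six3. They run 5′ to 3′ on the gene's strand, and capitals mark the Meis word TGACAG or its reverse complement. The Foxe3 window is chr4:114926068-114926317 on the minus strand, the Six3 window chr17:85620584-85620833 on the plus strand and the Pax6 window chr2:105682213-105682462 on the plus strand. The Six3 window lies inside the gene's span (chr17:85613608-85626191) and not before it. The same holds for the printed Pax6 window and for those of Meis1, Meis2, Pdgfra and Tfap2a.
Foxe3: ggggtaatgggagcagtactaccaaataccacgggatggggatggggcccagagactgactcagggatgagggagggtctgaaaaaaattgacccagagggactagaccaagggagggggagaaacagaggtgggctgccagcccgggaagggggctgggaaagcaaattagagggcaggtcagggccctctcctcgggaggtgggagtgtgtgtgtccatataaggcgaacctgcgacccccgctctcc
Six3: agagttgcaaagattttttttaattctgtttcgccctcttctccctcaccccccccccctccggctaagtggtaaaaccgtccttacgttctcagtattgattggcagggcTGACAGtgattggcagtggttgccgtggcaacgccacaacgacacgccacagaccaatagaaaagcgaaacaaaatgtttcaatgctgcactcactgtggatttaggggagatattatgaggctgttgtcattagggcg
Pax6: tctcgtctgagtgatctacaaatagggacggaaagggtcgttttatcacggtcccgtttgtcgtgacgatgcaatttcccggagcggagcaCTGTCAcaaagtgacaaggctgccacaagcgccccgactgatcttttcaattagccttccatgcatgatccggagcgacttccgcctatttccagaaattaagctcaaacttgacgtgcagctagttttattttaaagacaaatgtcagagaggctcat

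Words of 4 factor families were searched on both strands: TGACAG for Meis proteins, GTAAACA for forkhead proteins, GCCNNNGGC for AP-2 proteins such as Tfap2a, and TAATCC for Pitx proteins. None of the 4 was found in the Foxe3 window. TGACAG stood 139 to 134 bases before the listed Six3 start, inside the gene's span. On the opposite strand it stood 159 to 154 bases before the downstream Pax6 start. It was in 2 of 10 windows of these genes and in 15.9% of 32851 windows of that length. GCCNNNGGC was in the upstream Pax6 window and that of Pitx3, and in 13.7% of all windows. GTAAACA and TAATCC were in none of the 10 windows, and in 3.17% and 6.25% of all windows. Each printed window held at most 1 match, so no matches overlapped. A match is only a run of letters, and the arrays carry no measure of binding.

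Foxe3 has 1 probe set on the array, 1422393_at. It measured 13.33, 13.42 and 13.39 in T1, T2 and T3, against 8.54, 8.86 and 8.82 in W1, W2 and W3 (normalised log2 values). The transgenic samples lay within 0.088 of each other and the wild-type samples within 0.31, and the lowest transgenic value stood 4.47 above the highest wild-type value. The difference was 4.64 ± 0.10 (SE, n = 3 each; limma adjusted p = 1.09e-06), a 24.9-fold rise with a 95% interval of 21.1 to 29.4. It was the largest difference and the smallest p of all probe sets, and the next largest difference was 2.59, for Neat1. The array cannot tell transcripts of an added gene copy from those of the resident gene.

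**Figure D1:**
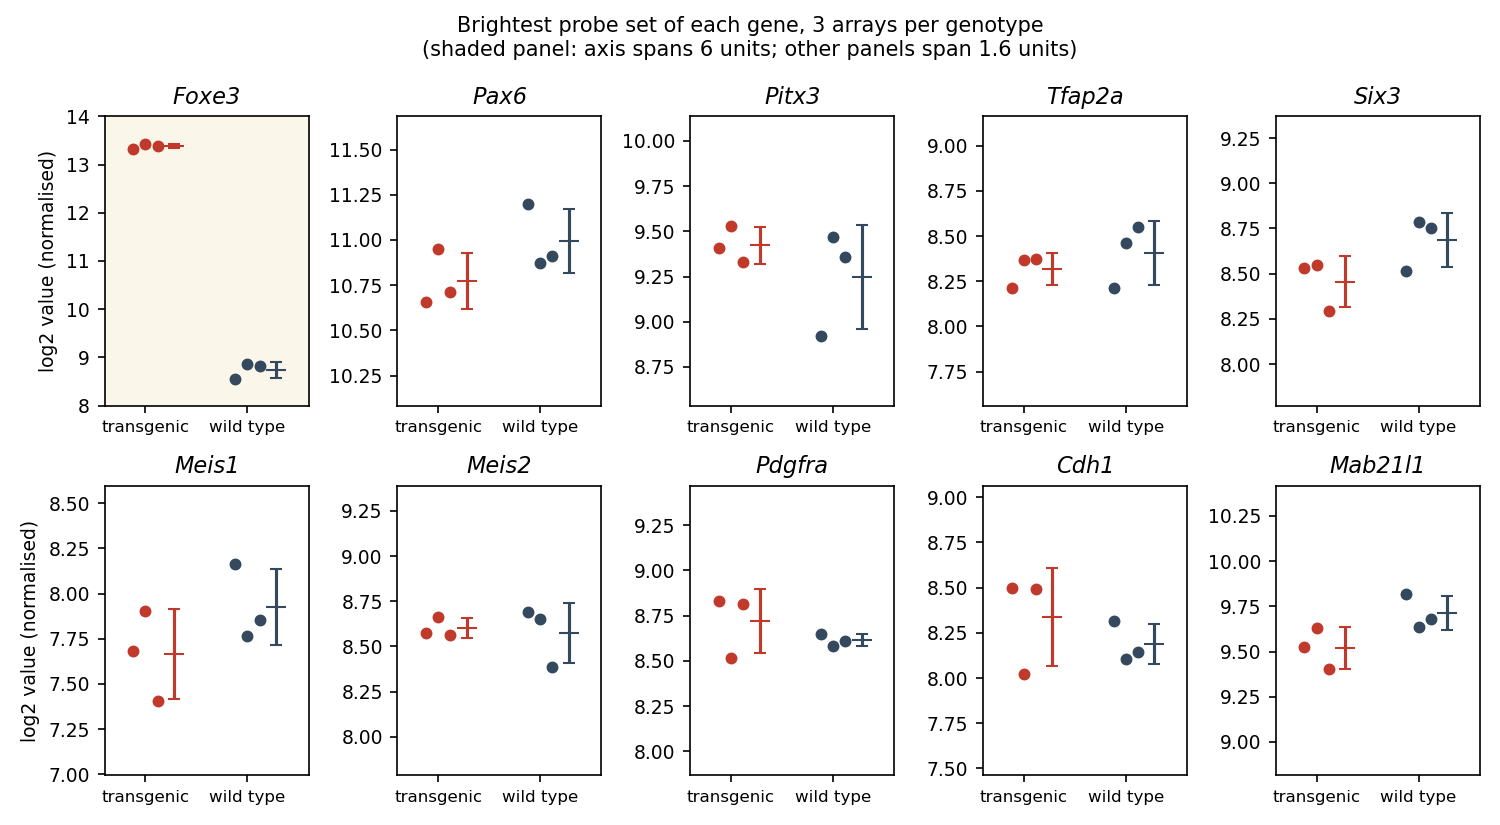
Normalised log2 value of the brightest probe set of each gene on each of 3 transgenic (red, left) and 3 wild-type (dark, right) arrays, with the mean and SD of each group; the Foxe3 axis covers a wider range than the others. Foxe3 lay between 13.33 and 13.42 in transgenic and between 8.54 and 8.86 in wild-type lenses, and the largest difference in the other 9 panels was that of Meis1, -0.26.

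The genes most like Foxe3 over the 6 arrays were those with the smallest root mean square difference between profiles, each centred on its own mean. They were Neat1 (1.04), Plxdc1 (1.29), Srpk3 (1.49), Perp (1.57) and Arfgef3 (1.63), where the median over all genes was 2.32. Neat1, a nuclear long noncoding RNA, measured 8.58, 8.44 and 8.89 in T1, T2 and T3, against 6.04, 5.99 and 6.11 in W1, W2 and W3. Its difference was 2.59, and those of Plxdc1, Srpk3 and Arfgef3 were 2.08, 1.68 and 1.40, all of which passed. Foxe3 varies mainly by genotype, so the choice by likeness favours genes with a large genotype difference on these same arrays. The calls of these genes are descriptions and not separate support. The second probe sets of Neat1 and Plxdc1, both dim, differed by 0.19 and 0.0031 and did not pass, whereas a second probe set of Srpk3 (0.88) and a dim second probe set of Arfgef3 (0.99) passed (limma adjusted p = 0.00233 and 0.0298) and the other 2 Srpk3 probe sets did not. Perp, which encodes a desmosome-associated membrane protein of stratified epithelia, measured 8.62, 8.24 and 10.35 in T1, T2 and T3, against 7.18, 7.12 and 7.50 in W1, W2 and W3 and did not pass (limma adjusted p = 0.0710). Its highest value was in T3, the array with the most skin transcripts.

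Pax6, the paired-box and homeobox gene at the head of eye development, had 5 probe sets, all above the median of probe set means. The brightest, 1419271_at, measured 10.66, 10.95 and 10.71 in T1, T2 and T3, against 11.20, 10.87 and 10.91 in W1, W2 and W3. T2 exceeded 2 of the wild-type samples, so the groups overlapped. The difference was -0.22 ± 0.12 (SE, n = 3 each; limma adjusted p = 0.338), with a 95% interval of -0.50 to 0.056. The other 4 differed by -0.37, -0.30, -0.31 and -0.076, so all 5 lay below 0, though they read the same 6 RNA samples and are not independent. The groups of 1425960_s_at did not overlap: it measured 6.897, 7.002 and 6.781 in T1, T2 and T3, against 7.475, 7.147 and 7.159 in W1, W2 and W3. Its 95% interval was -0.63 to -0.10, and it did not pass over all probe sets (limma adjusted p = 0.120).

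Six3, a homeobox gene of the anterior head, lens and retina, gave the 1 lower call. Its probe set 1426637_a_at measured 5.20, 5.03 and 4.98 in T1, T2 and T3, against 5.40, 5.58 and 5.66 in W1, W2 and W3. Every transgenic value lay below every wild-type value, but its mean was below 5.34, the median of all probe set means. The difference was -0.48 ± 0.10 (SE, n = 3 each; limma adjusted p = 0.0456). The call was lost on the values as deposited (0.0645) and without T1 (0.0631), T2 (0.147), T3 (0.105), W2 (0.144) or W3 (0.138). The brightest Six3 probe set, 1427523_at, measured 8.53, 8.55 and 8.29 in T1, T2 and T3, against 8.51, 8.79 and 8.75 in W1, W2 and W3. Its groups overlapped through W1, and the difference was -0.23 (95% interval -0.49 to 0.029; limma adjusted p = 0.289). The remaining probe set differed by -0.13.

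Mab21l1, which the mouse lens placode needs for Foxe3 expression, had 2 bright probe sets. The brighter, 1421369_a_at, measured 9.52, 9.63 and 9.40 in T1, T2 and T3, against 9.82, 9.64 and 9.68 in W1, W2 and W3. The groups did not overlap, with T2 just below W2. The difference was -0.19 ± 0.10 (SE, n = 3 each; limma adjusted p = 0.301), with a 95% interval of -0.41 to 0.030. The other probe set, 1424679_at, differed by -0.27 (limma adjusted p = 0.277).

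Meis1 and Meis2 encode related homeodomain proteins of the TALE class that act on Pax6 in the lens placode. The brightest Meis1 probe set, 1450992_a_at, measured 7.68, 7.90 and 7.41 in T1, T2 and T3, against 8.16, 7.77 and 7.85 in W1, W2 and W3. The groups overlapped through T2, and the difference was -0.26 (95% interval -0.61 to 0.081; limma adjusted p = 0.358). The other 2 Meis1 probe sets, both below the median level, differed the other way, by 0.11 and 0.24. The brightest Meis2 probe set, 1417129_a_at, measured 8.57, 8.67 and 8.57 in T1, T2 and T3, against 8.69, 8.65 and 8.38 in W1, W2 and W3. Its difference was 0.026 (95% interval -0.21 to 0.26), with the sign turned on the values as deposited (-0.052) and when array medians were set equal (-0.088). Meis2 probe set 1447861_x_at had the largest positive difference of the 25, 0.30 (limma adjusted p = 0.235), and the last 2 differed by -0.043 and 0.024.

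Pitx3, a homeobox gene whose loss in the aphakia mouse arrests the lens, had 1 probe set, 1449917_at. It measured 9.41, 9.53 and 9.33 in T1, T2 and T3, against 8.92, 9.47 and 9.36 in W1, W2 and W3. W1 was the lowest of the 6 samples. The difference was 0.17 (95% interval -0.15 to 0.50; limma adjusted p = 0.532), and 0.011 without W1. Tfap2a, which encodes the transcription factor AP-2 alpha of surface ectoderm and lens epithelium, measured 8.21, 8.37 and 8.37 in T1, T2 and T3, against 8.21, 8.46 and 8.55 in W1, W2 and W3 by its brightest probe set, 1421996_at. The groups overlapped, with a difference of -0.089 (95% interval -0.34 to 0.16; limma adjusted p = 0.690). Its other probe sets differed by 0.035 and -0.042.

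Pdgfra, the receptor through which platelet-derived growth factor A stimulates lens growth, had 3 probe sets. The brightest, 1421917_at, measured 8.83, 8.52 and 8.81 in T1, T2 and T3, against 8.65, 8.58 and 8.61 in W1, W2 and W3. T2 was the lowest of the 6 samples, and T1 and T3 were the highest. The difference was 0.11 (95% interval -0.13 to 0.35; limma adjusted p = 0.605), and -0.0017 when array medians were set equal. The other probe sets differed by -0.15 and -0.065. Cdh1 encodes E-cadherin, the adhesion protein of epithelial cells, and its probe set 1448261_at measured 8.50, 8.02 and 8.49 in T1, T2 and T3, against 8.32, 8.11 and 8.14 in W1, W2 and W3. Again T2 was lowest, and T1 and T3 were highest. The difference was 0.15 (95% interval -0.17 to 0.47; limma adjusted p = 0.586).

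**Figure D2:**
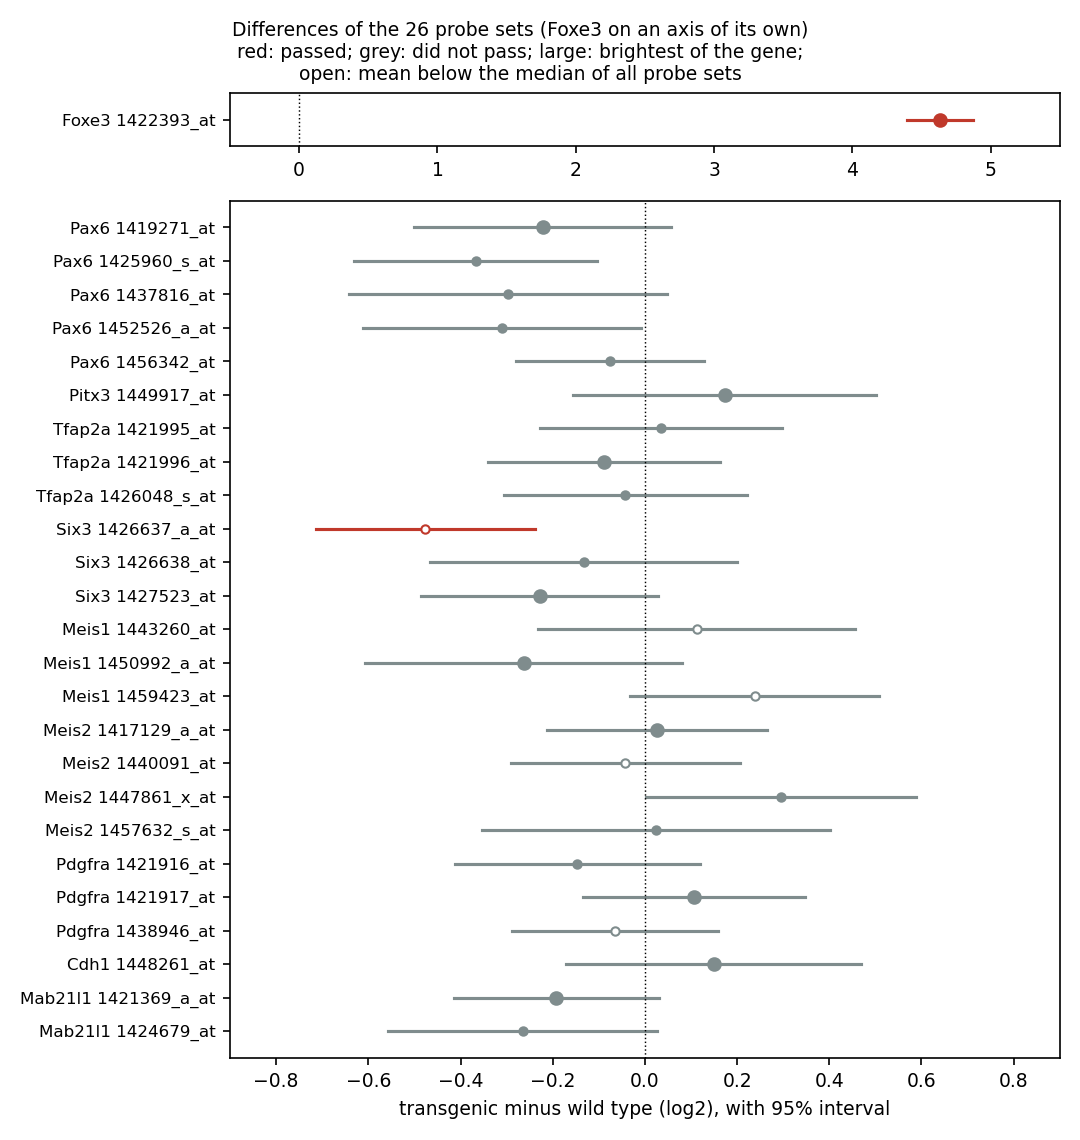
Difference between transgenic and wild-type lenses (log2) of each of the 26 probe sets with its 95% interval; red marks those that passed, large points the brightest probe set of a gene and open points probe sets whose mean lay below the median. Foxe3, on its own axis, stands at 4.64, and among the other 25 only the dim Six3 probe set passed.

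A difference that did not pass is not shown to be 0, and the intervals bound it. For the brightest probe set the transgenic level was 0.707 to 1.04 times the wild-type level for Pax6, 0.714 to 1.02 for Six3, 0.750 to 1.02 for Mab21l1 and 0.657 to 1.06 for Meis1 (95% intervals). It was 0.863 to 1.20 times for Meis2, 0.898 to 1.42 for Pitx3, 0.790 to 1.12 for Tfap2a, 0.911 to 1.27 for Pdgfra and 0.888 to 1.38 for Cdh1. In simulated arrays of this design the test found 13.6% of probe sets shifted by 0.5 log2 units and 88.4% of those shifted by 1. The simulation changed 200 of 45037 probe sets with independent noise, whereas 1656 passed in the data. Its shares may therefore differ from those in the data.

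All 9 measured lens markers, among them the crystallin genes Cryaa and Cryab, were above the median level on every array. Their summed unlogged signal was 119742 to 126872 in transgenic and 132556 to 136856 in wild-type samples. These sums did not overlap. Taken singly, 28.8% of all genes had log2 values that did not overlap, which is another measure than a sum over 9 markers. By log2 difference 5 of the 9 lay below 0 and 4 above, with a median of -0.064, and 1 passed. Cryaa and Cryab differed by 0.034 and 0.031. Of 15 measured neural retina markers 14 had differences below 0 and none passed, with a median of -0.38. Their summed unlogged signal was 3005 to 4830 in transgenic and 3866 to 5853 in wild-type samples. The retina score of an array, the median over markers of the deviation from each marker's mean, was -0.48, 0.20 and -0.26 in T1, T2 and T3, against 0.44, 0.28 and -0.052 in W1, W2 and W3. Within each genotype T2 and W1 scored highest. The same 2 arrays were highest for 3 of 5 Pax6, both Mab21l1, 2 of 3 Meis1 and 3 of 4 Meis2 probe sets. For none of the Six3 and Tfap2a probe sets, genes also active in the retina, were both arrays highest. T2 was the highest transgenic array for Six3 1426638_at and 1427523_at and for Tfap2a 1426048_s_at, but W1 was not the highest wild-type array for these. In all, T2 and W1 were both highest for 10 of the 26, and for 11.0% of all probe sets, though probe sets of the same gene are not independent.

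With the retina score as a covariate, an alternative added after seeing the data, the difference of the brightest probe set was -0.038 for Pax6, -0.078 for Meis1 and -0.11 for Mab21l1. It was 0.16 for Meis2 and -0.26 for Six3. The dim Six3 probe set then differed by -0.60 and did not pass (limma adjusted p = 0.0919), and Foxe3 differed by 4.60 and passed. The score was built from the same arrays, and ran from -0.48 to 0.20 in transgenic and from -0.052 to 0.44 in wild-type samples. It is thus partly confounded with genotype, and the part of retina tissue in these values was not tested.

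Markers of skin, mesenchyme and muscle stood apart in T3. The 12 skin and corneal epithelium markers summed to 2017, 1829 and 30938 in T1, T2 and T3, against 1810 to 2923 in wild-type samples. The 10 mesenchyme markers summed to 659, 949 and 12850, against 598 to 876, and the 8 skeletal muscle markers to 386, 373 and 7235, against 388 to 556. Cdh1, Pdgfra and Tfap2a, also active in such tissues, were not set apart in T3: Cdh1 was 8.50 in T1 and 8.49 in T3, Pdgfra 8.83 and 8.81, and Tfap2a 8.37 in T2 and 8.37 in T3. Without T3 the difference was 0.072 for Cdh1, 0.058 for Pdgfra, -0.12 for Tfap2a and 4.63 for Foxe3.

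**Figure D3:**
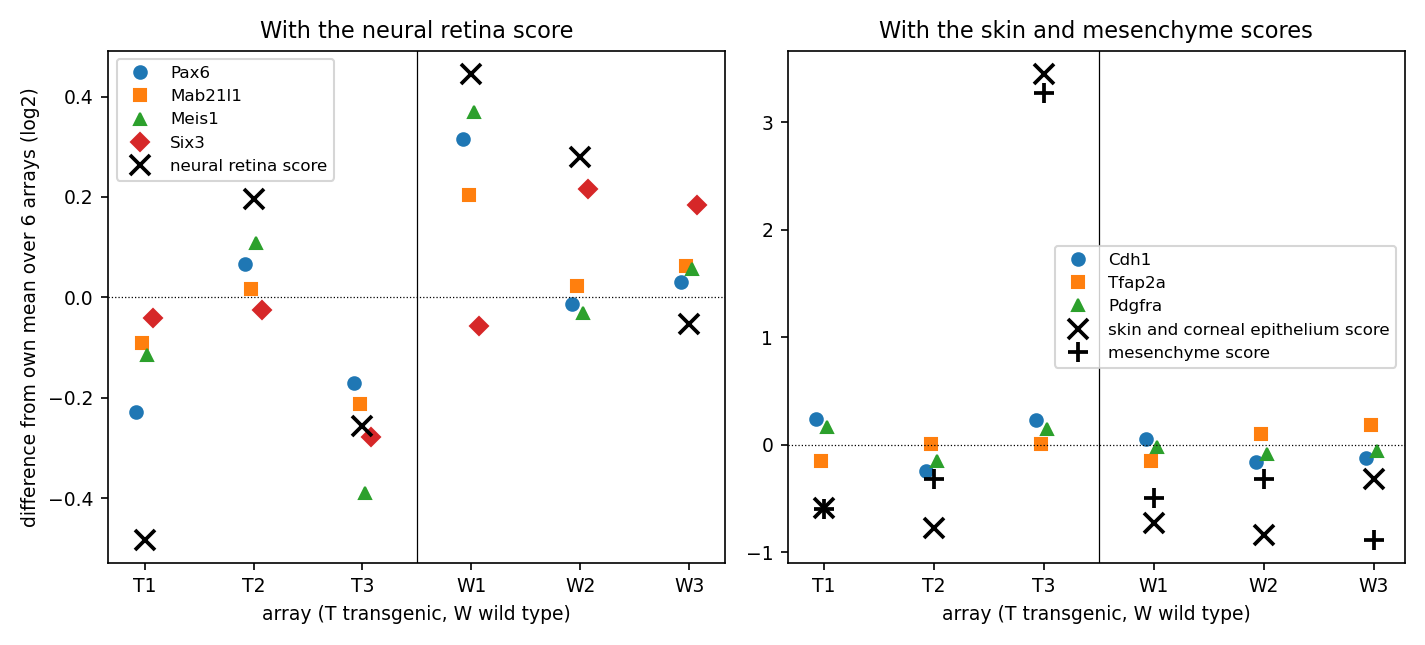
Brightest probe set of Pax6, Mab21l1, Meis1 and Six3 with the retina score (left panel) and of Cdh1, Tfap2a and Pdgfra with the skin and mesenchyme scores (right panel) on each array, as the log2 deviation from the mean over 6 arrays. The retina score is highest in T2 among transgenic and in W1 among wild-type arrays, as are Pax6, Meis1 and Mab21l1. Six3 is highest in T2 and W2. The skin score of 3.45 and the mesenchyme score of 3.27 in T3 are not matched by Cdh1, Tfap2a or Pdgfra.

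Genes related to the 10 by function were taken from 7 lists, each gene by its brightest probe set. Over all genes 4.41% passed, 1.85% as higher and 2.56% as lower, with a median difference of 0.011. Of 21 measured regulators of lens induction 1 rose and 20 did not pass, with a median of -0.031. The riser was Fgfr2, a receptor for the fibroblast growth factors of lens growth and fiber differentiation, which measured 9.31, 9.37 and 9.58 in T1, T2 and T3, against 8.60, 8.91 and 8.94 in W1, W2 and W3. Its groups did not overlap, and the difference was 0.61 ± 0.12 (SE; limma adjusted p = 0.0343), but the call was lost with any 1 array left out (0.0633 to 0.106). Its other 2 probe sets were also above 0 without passing. Otx2 differed by -0.60, Sox2 by -0.54 and Eya1 by -0.51, all genes of early eye transcription, and none of them passed (limma adjusted p = 0.245, 0.134 and 0.0849).

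Of 14 measured relatives of the member factors none passed, with a median of -0.078. Those with the smallest p were the TALE genes Pbx2 (0.34) and Pbx3 (-0.28), the AP-2 gene Tfap2d (-0.30) and Six5 (0.26), with limma adjusted p of 0.142 to 0.256.

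Of 13 genes of platelet-derived growth factor signalling none passed, with a median of 0.066; Shc1 passed as lower when array medians were set equal, with array weights and without W1. The ligand genes Pdgfa and Pdgfb differed by 0.27 and 0.33, the phosphatase gene Ptpn11 by 0.29 and the adaptor gene Shc1 by -0.56 (limma adjusted p of 0.0965 to 0.258). Of 12 genes of the adherens junction, in which E-cadherin works, none passed, with a median of 0.092; Afdn passed as higher with dim probe sets left out, trended robust variances or array weights, and Ctnna1 as lower with equal array medians, trended robust variances or array weights. Afdn (afadin) differed by 0.39, Cdh2 (N-cadherin) by 0.37, Jup (plakoglobin) by 0.44 and Ctnna1 (alpha-catenin) by -0.37 (limma adjusted p of 0.0612 to 0.227). Jup was highest in T3, where skin markers were high, and differed by 0.20 without that array.

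Of 6 genes for repressors of E-cadherin Tcf3 fell and 5 did not pass, with a median of 0.080. Tcf3 differed by -0.36 ± 0.079 (SE; limma adjusted p = 0.0483) and lost the call with any 1 array left out (0.0791 to 0.149). Its other 2 probe sets were also below 0 without passing. Twist2 differed by 0.83 without passing and measured 4.34, 4.61 and 6.14 in T1, T2 and T3, against 4.06, 4.36 and 4.17 in W1, W2 and W3, so that its high value lay in T3, where the mesenchyme markers were high, and the difference without T3 was 0.27. Snai2 measured 5.65, 5.67 and 6.85 in T1, T2 and T3, against 5.97, 5.79 and 5.81 in W1, W2 and W3. T3 alone was above the wild-type values, and the difference of 0.20 turned to -0.20 without T3, while Zeb1 differed by 0.13.

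Of 15 other measured genes of the lens epithelium 2 rose and 13 did not pass, with a median of 0.18. Wls, whose protein is needed for Wnt secretion, measured 10.51, 10.31 and 10.38 in T1, T2 and T3, against 9.07, 9.09 and 9.17 in W1, W2 and W3. The groups were far apart, with a difference of 1.29 ± 0.090 (SE; limma adjusted p = 0.000379), and 2 of its 3 other probe sets passed too. Itga6, the laminin receptor subunit integrin alpha 6, measured 9.54, 9.52 and 9.58 in T1, T2 and T3, against 8.70, 8.96 and 9.16 in W1, W2 and W3. Its difference of 0.61 ± 0.12 passed (SE; limma adjusted p = 0.0323), as did its other probe set. The Itga6 call was lost without T1 (0.0855), T2 (0.108), T3 (0.0724), W1 (0.0507) or W2 (0.107). Ezr, encoding the membrane linker ezrin, differed by 0.35 and the secreted Dickkopf family gene Dkk3 by -0.31, without passing.

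Of 7 genes of fiber cell cycle exit and maturation 2 fell, 1 rose and 4 did not pass. The nuclease gene Dnase2b differed by -2.22 and the homeobox gene Prox1 by -1.04 (limma adjusted p = 0.00128 and 0.00665), and both passed with any 1 array left out. The other 2 Prox1 probe sets, both bright, differed by -0.33 and -0.68 and did not pass (limma adjusted p = 0.253 and 0.0890). Cdkn1c, which encodes a cyclin-dependent kinase inhibitor, measured 12.27, 12.24 and 12.20 in T1, T2 and T3, against 11.87, 11.82 and 11.86 in W1, W2 and W3. The samples of each group lay close together, with a rise of 0.39 ± 0.080 (SE; limma adjusted p = 0.0363). The call was lost when array medians were set equal (0.0704) and with any 1 array left out (0.0604 to 0.132). Ccnd1, the cyclin D1 gene, differed by -0.27 without passing. With the retina score as a covariate Wls, Prox1 and Dnase2b still passed. Fgfr2, Tcf3, Itga6 and Cdkn1c did not (limma adjusted p = 0.201, 0.180, 0.200 and 0.175), with differences of 0.52, -0.37, 0.47 and 0.38. The added term also leaves fewer degrees of freedom, and the lost calls do not show that these genes go with retina tissue.

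**Figure D4:**
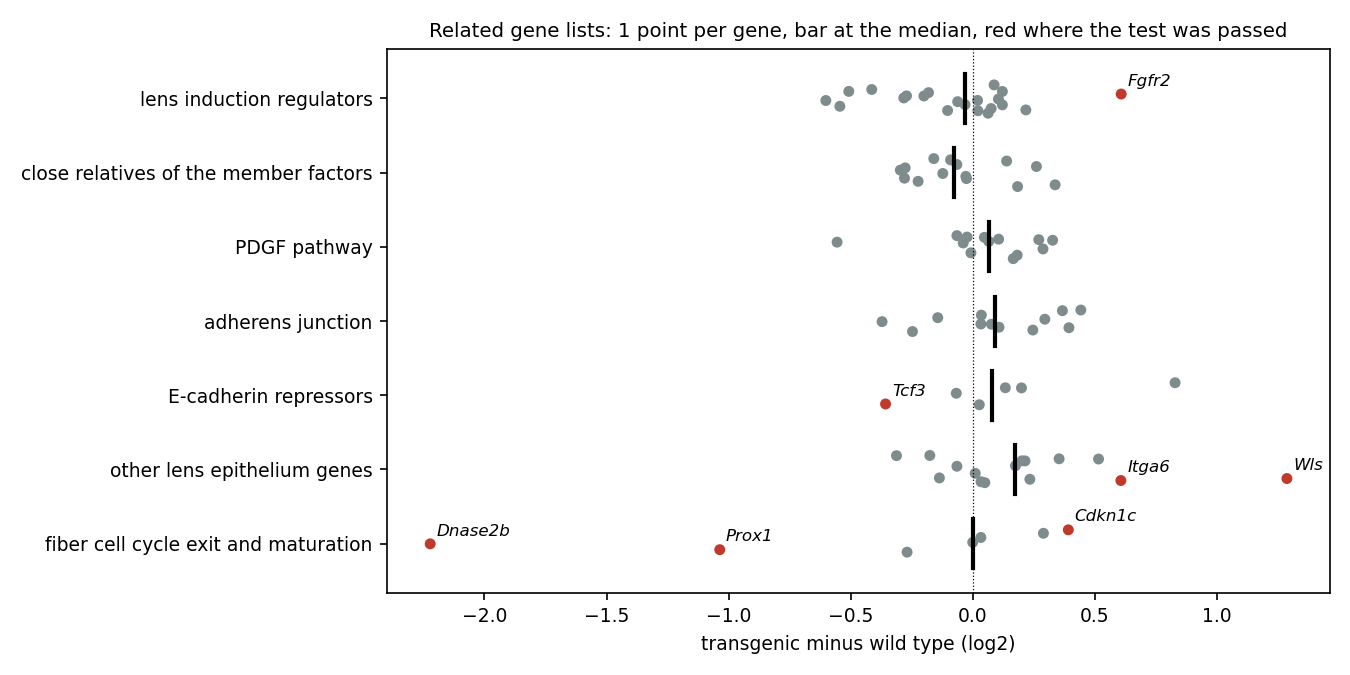
Difference between transgenic and wild-type lenses (log2) for each measured gene of the 7 lists, 1 point per gene, with a bar at the list's median and the genes that passed named. The named genes are Fgfr2, Tcf3, Wls, Itga6, Cdkn1c, Prox1 and Dnase2b, of which Dnase2b lies lowest at -2.22 and Wls highest at 1.29.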

How the data were processed

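Each of 6 Affymetrix arrays of whole lens RNA was assigned to its genotype and replicate by its title. The deposited table gives 1 log2 value per probe set and array, a scale read from the values; the sources used here do not give the authors' summary or normalization method. After 64 control probe sets were set aside, 45037 were quantile normalised (limma 3.58.1, R 4.3.3), since the arrays' upper quartiles differed by up to 0.120. Names came from the platform annotation, updated by gene ID with RefSeq (99.4% of the 34945 probe sets with 1 symbol matched).

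Genotypes were compared with limma (lmFit and eBayes), two-sided, with Benjamini-Hochberg adjustment over all probe sets, and SEs are its moderated errors. The number of arrays limits the precision. On simulated arrays with 200 changed probe sets and independent noise 3.70% of calls were false, a share that need not hold for the data. Named are all member probe sets, up to 4 genes of smallest p in each of 7 gene lists, and the 5 genes most like Foxe3; 2 crystallin genes, and Mitf, Foxc1, Tek and Bfsp1 among the markers, were named after their values were seen, the last 4 because they passed. A gene is represented by its brightest probe set. Members and lists were chosen with earlier results of these data known, so their counts are descriptions. There were also 7 marker lists. Alternatives were the deposited values, equal array medians, dim probe sets left out, 1 row per gene, trended robust variances, array weights, the replicate number as a block, leaving out each array and a retina score covariate.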

Additional observations from a re-analysis of the deposited data

How the results depend on the processing

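Foxe3 passed under every setting run, with a difference of 4.55 to 4.70 with 1 array left out. Of the member probe sets 1 was lower, against 0 on the deposited values, with dim probe sets left out, with 1 row per gene (neither of which tests the dim Six3 probe set), with the replicate block and with the retina score, and 0 to 1 with 1 array left out. Over all probe sets 661 were higher and 995 lower. With equal array medians 470 were higher and 1297 lower. These counts were 352 and 475 with 1 row per gene, 1063 and 1504 with array weights, 230 and 483 with the replicate block, and 92 and 345 with the retina score. With 1 array left out they were 131 to 398 higher and 303 to 864 lower, with fewer arrays in the fit. Deviations of same-numbered samples correlated at 0.015 to 0.087, and those of differently numbered samples at -0.059 to 0.019. The labels do not state that equal numbers mark a shared source, so the numbers were not taken to pair samples. With the block Six3 1426637_a_at had a limma adjusted p of 0.107, Tcf3 0.104, Cdkn1c 0.0895 and Itga6 0.0590. Calls were gained in the lists by Ezr (higher) and Dkk3 (lower) with trended robust variances, by Eya1 (lower) without T1 and by Gja1 (higher) without W1.

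The member probe sets whose sign turned had not passed, and the causes were not tested. On the deposited values Meis2 1417129_a_at was -0.052 and 1457632_s_at -0.031; with equal array medians they were -0.088 and -0.068, and Pdgfra 1421917_at was -0.0017. With array weights Tfap2a 1421995_at was -0.0091 and Meis2 1440091_at 6.48e-05. With the retina score Tfap2a 1421995_at was -0.071, Meis2 1440091_at 0.089, Pdgfra 1421917_at -0.015 and Cdh1 -0.0079. With 1 array left out the ranges were -0.040 to 0.14 for Tfap2a 1421995_at, -0.14 to 0.045 for 1426048_s_at, -0.061 to 0.24 for Meis1 1443260_at, -0.068 to 0.084 for Meis2 1417129_a_at, -0.14 to 0.040 for 1440091_at and -0.13 to 0.17 for 1457632_s_at.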

Other observations

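Over the 7 marker lists 4 of 71 genes passed (5.63%), near the 4.41% of all genes, so these calls show nothing particular to the lists. Of 8 pigment epithelium and melanocyte markers Mitf, the gene of their main transcription factor, fell with a difference of -0.56 (limma adjusted p = 0.0241), while 7 differed above 0 without passing. The list's summed signal was 1923, 5398 and 2870 in T1, T2 and T3, against 2151 to 2559 in wild-type samples. Of 10 mesenchyme markers the forkhead gene Foxc1 fell with a difference of -0.54 (limma adjusted p = 0.0390). The list's median was 1.25, with its summed signal high in T3 only. Of 9 vessel and blood markers the angiopoietin receptor gene Tek rose by 0.49 (limma adjusted p = 0.0473), and the median was -0.077. None of the 12 skin or 8 muscle markers passed, with medians of 1.22 and 0.84 and summed signals again high in T3 only. Of 9 lens markers Bfsp1, a beaded filament gene of fibers, fell with a difference of -1.66 (limma adjusted p = 0.000279). Without T3 the calls of Mitf and Foxc1 were lost (limma adjusted p = 0.0540 and 0.0601), and those of Tek and Bfsp1 were kept (0.0364 and 0.000482). These lists were chosen with results known and the calls are descriptions.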
